A study of Rattus norvegicus with 3 samples.

Results

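Thin filament, Z-disc and M-band genes encode the structural parts of the heart's contractile unit, the sarcomere, other than the myosin chains. A list of 33 rat gene symbols was followed, and 29 of them had at least 1 row in the deposited gene table, out of 16947 distinct symbols on 17450 rows. Ttn (titin), Tcap (telethonin), Synpo2l and Xirp1 were on no row under these symbols, and their transcripts were not analysed here. Of the 29 genes, 28 entered the authors' test in each comparison, and Myot was below it. RNA was sequenced from neonatal rat ventricular myocytes, heart muscle cells taken from 1-day-old Sprague Dawley pups, enriched on a Percoll gradient and by preplating, and moved to serum-free medium. Ethanol alone was given to the control, and the other groups received dexamethasone (Dex) at 100 nM for 1 h or for 24 h, a drug that acts through the glucocorticoid receptor (GR). The labels give 1 sample per group, whose title marks it as a duplicate (X2) without saying what was duplicated, and no treatment time for ethanol, so that Dex and time in culture cannot be told apart. All 3 groups share the same culture procedure, and the same ethanol sample is the control for both times.

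Levels are FPKM, sequenced fragments adjusted for the length of the transcript and the size of the library, with 1 deposited value per gene and group. No spread between replicates can be computed from 1 value. Each log2 fold is therefore given with a standard error (SE) implied by the authors' test statistic. The words rose and fell are kept for genes whose q-value in the authors' deposited table, adjusted over all 3 comparisons, is at most 0.05. Nothing in the labels says that the duplicates came from different cell cultures, or how they entered the authors' test, so the p-values may measure technical spread.

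In the sarcomere, thin filaments of actin carry tropomyosin and the troponin complex, which switch contraction on when calcium binds. Their ends are anchored in the Z-disc, a lattice built on alpha-actinin, while thick filaments are cross-linked in the middle of the sarcomere at the M-band by myomesins. Desmin filaments tie neighbouring Z-discs together. LIM-domain and ankyrin-repeat proteins at these sites are known to shuttle to the nucleus and to respond to stretch. Many of these genes are controlled by serum response factor (SRF), which binds a motif called the CArG box. GR binds DNA at glucocorticoid response elements (GREs), built from a core hexamer, AGAACA, and its reverse complement.

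The authors' workbook also lists regions bound by GR in chromatin immunoprecipitation (ChIP), which belongs to another experiment than the RNA samples. For Des and Myoz2, both of which rose at 24 h, such a region lay at the gene start. The 250 bases before the annotated start of these 2 genes are shown together with those of Ldb3, Tmod1 and Fhl2, which also have a region within 1 kb of the start and hold a searched motif. They are from RefSeq (build GRCr8, not the rn5 build of the files), read 5′ to 3′, and capitals mark a GRE hexamer or a CArG box. By the authors' distances, the near regions of Ldb3 and Fhl2 were centred 924 and 569 bases upstream of the start. That of Tmod1 was centred 297 bases inside the gene. These centres lie outside the 250 bases shown, so the capitals are not shown to lie in sequence bound by GR.
Des, chr9:84299376-84299625, plus strand: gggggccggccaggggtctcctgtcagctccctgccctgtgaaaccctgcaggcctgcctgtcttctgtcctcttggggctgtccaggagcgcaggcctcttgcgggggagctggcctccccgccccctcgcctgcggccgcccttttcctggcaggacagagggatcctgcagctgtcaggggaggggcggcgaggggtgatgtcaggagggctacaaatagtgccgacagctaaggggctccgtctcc
Myoz2, chr2:213852779-213853028, minus strand: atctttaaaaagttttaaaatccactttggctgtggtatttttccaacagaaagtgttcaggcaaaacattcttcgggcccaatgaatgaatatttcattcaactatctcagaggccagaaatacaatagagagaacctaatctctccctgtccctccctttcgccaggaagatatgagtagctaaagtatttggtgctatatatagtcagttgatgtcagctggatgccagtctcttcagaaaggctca
Ldb3, chr16:9924680-9924929, minus strand: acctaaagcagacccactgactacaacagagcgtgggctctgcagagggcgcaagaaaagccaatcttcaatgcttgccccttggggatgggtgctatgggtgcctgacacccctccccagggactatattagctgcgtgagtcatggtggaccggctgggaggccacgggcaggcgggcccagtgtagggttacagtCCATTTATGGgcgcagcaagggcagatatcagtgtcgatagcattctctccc
Tmod1, chr5:65111812-65112061, plus strand: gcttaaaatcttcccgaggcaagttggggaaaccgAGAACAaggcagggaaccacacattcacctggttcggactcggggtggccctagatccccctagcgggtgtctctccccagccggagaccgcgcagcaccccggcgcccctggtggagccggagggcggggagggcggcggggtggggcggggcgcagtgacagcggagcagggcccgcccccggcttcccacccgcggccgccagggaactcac
Fhl2, chr9:52954541-52954790, minus strand: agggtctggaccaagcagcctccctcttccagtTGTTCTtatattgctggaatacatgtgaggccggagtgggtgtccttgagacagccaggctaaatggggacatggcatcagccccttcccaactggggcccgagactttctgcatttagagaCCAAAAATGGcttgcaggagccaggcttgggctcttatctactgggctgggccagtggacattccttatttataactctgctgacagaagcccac

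In RefSeq as a whole, 17.5% of 33469 windows of this length held the hexamer AGAACA or TGTTCT, 1.5% held a CArG box (CC, then 6 bases that are each A or T, then GG), and 0.012% held the GRE palindrome, in which the hexamer and its reverse complement stand 3 bases apart. Both strands were searched, and every palindrome also holds the hexamer. Of the 25 listed genes with a window, 6 held the hexamer, 5 held a CArG box and none held the palindrome. Counted by window, as the shares above are, 6 of 30 held the hexamer and 6 of 30 a CArG box. The CArG boxes were in Acta1 (at position −94 from the gene start), Nebl (−177), Ldb3 (−52), Fhl1 (−102) and Fhl2 (−95, and −58 from its other start). The hexamer was in Tmod1, Fhl2, Mybpc3, Myom1, Synpo2l and Smpx, of which Mybpc3, Myom1, Synpo2l and Smpx have no GR region within 1 kb of the start. The windows of Des and Myoz2 held none of these motifs. Nor did those of Tpm1, Pdlim5 and Flnc, which also have a region within 1 kb of the start. No window was found for Abra, Ankrd1, Cryab, Csrp3, Myom2, Myot, Tcap and Tnnc1. A match describes letters in a window and shows no binding.

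In control cells these genes were among the most abundant transcripts. The 32 rows summed to 22819.7 FPKM in control, 21253 at 1 h and 26637 at 24 h, or 3.50%, 3.30% and 4.05% of all FPKM. Of the 29 genes, 6 were above 1000 FPKM in control, 15 between 100 and 1000, 6 between 10 and 100 and 2 below 10. Actc1, the cardiac actin, had the highest level, 5592 FPKM, and stood 4th among all rows. It was followed by Tpm1 (tropomyosin, 2771 FPKM), the stress-responsive ankyrin-repeat protein Ankrd1 (2349), Tnnt2 (troponin T, which binds tropomyosin, 2286), Tnnc1 (troponin C, the calcium sensor, 2260.4) and the small heat shock protein Cryab (2108). Without replicate values the order of neighbours in this ranking cannot be separated from error. Abra, an actin-binding protein that activates SRF signalling, was at 6.69 FPKM in control. Myot (myotilin, a Z-disc protein best known from skeletal muscle) was listed on 3 rows at no more than 0.0443 FPKM in any group.

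**Figure D1:**
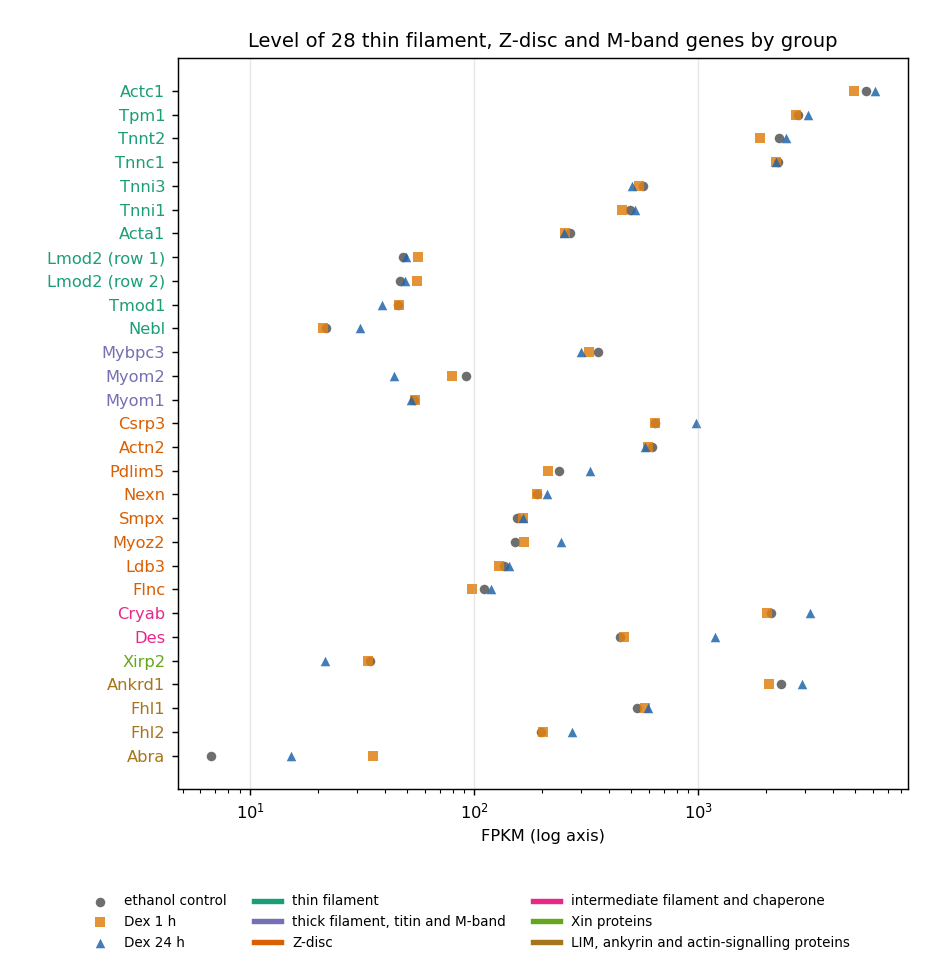
FPKM (log axis) of the 28 tested genes in ethanol control (circles), Dex 1 h (squares) and Dex 24 h (triangles), 1 deposited value per group, with names coloured by role and the 2 rows of Lmod2 shown separately. Most genes keep their place over the 3 groups, while Abra moves from 6.69 FPKM in control to 35.3 at 1 h and Des from 446 in control to 1191 at 24 h.

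The identity of the cells was read from marker lists. All 9 cardiomyocyte markers were detected, with Nppa, the atrial natriuretic peptide, at 8985 FPKM in control, while 8 of 10 skeletal muscle markers, Myod1, Myog and Pax7 among them, were below 1 FPKM in every group. Of the other two, Myh1 was at 1.25 FPKM in control, and Ckm, the muscle creatine kinase that heart muscle also expresses, had 152 FPKM in control, 129 at 1 h and 43.9 at 24 h. Ckm fell at 24 h (log2 −1.79 ± 0.31). Transcripts on the marker lists of other cells were present too. In control the smooth muscle and pericyte list summed to 8897 FPKM, the fibroblast list to 6394, the endothelial list to 155 and the macrophage list to 122, and no marker of these 4 lists was listed at 0. Most of the smooth muscle and pericyte sum came from Acta2 (4806 FPKM) and Tagln (3491), while Rgs5 was at 22.7, Abcc9 at 7.90 and Kcnj8 at 2.32. That sum is therefore no measure of how many such cells there were. The fibroblast sum adds 2 rows of Col1a2 with nearly equal levels (1876 and 1866 FPKM), so that this gene may be counted more than once. In such bulk RNA, fewer cells of a type and less RNA per cell cannot be told apart.

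The comparison of 1 h with control covers early changes. Abra rose, and no other listed gene was called. Abra (XLOC_014964, rn5 chr7:80816574-80820643) had 6.69 FPKM in control, 35.3 at 1 h and 15.2 at 24 h, so that it was highest at 1 h and still above control at 24 h. The log2 fold at 1 h was 2.40 ± 0.36, a 5.27-fold rise, with q = 0.00238 in the authors' deposited table. Of the 28 tested genes 1 was called (3.57%), against 0.863% of all 11582 gene rows tested (0.622% higher, 0.242% lower) and 0.807% of those averaging 10 FPKM or more, and 1 gene is too few to read a difference from that share. The other 27 genes had log2 folds between −0.27 for Tnnt2 and 0.23 for Lmod2, and none had p < 0.05 before adjustment in the authors' deposited table, a mark that 2.76% of all genes tested passed. The median log2 fold of the 29 genes was −0.03, beside −0.01 for all 6682 gene rows averaging 10 FPKM or more.

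The comparison of 24 h with control covers sustained exposure. Des, Abra and Myoz2 rose and Myom2 fell, while 24 of the 28 tested genes were not called. The share called was 14.3%, against 6.22% of all 11673 gene rows tested (4.18% higher, 2.04% lower) and 4.76% of those averaging 10 FPKM or more. Before adjustment, at p < 0.05 in the authors' deposited table, 8 genes were higher and 2 lower, 35.7% of those tested, against 14.3% of all genes tested. The median log2 fold was 0.09, beside 0.00 for all 6681 gene rows averaging 10 FPKM or more. These shares and medians describe the list and were not tested.

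**Figure D2:**
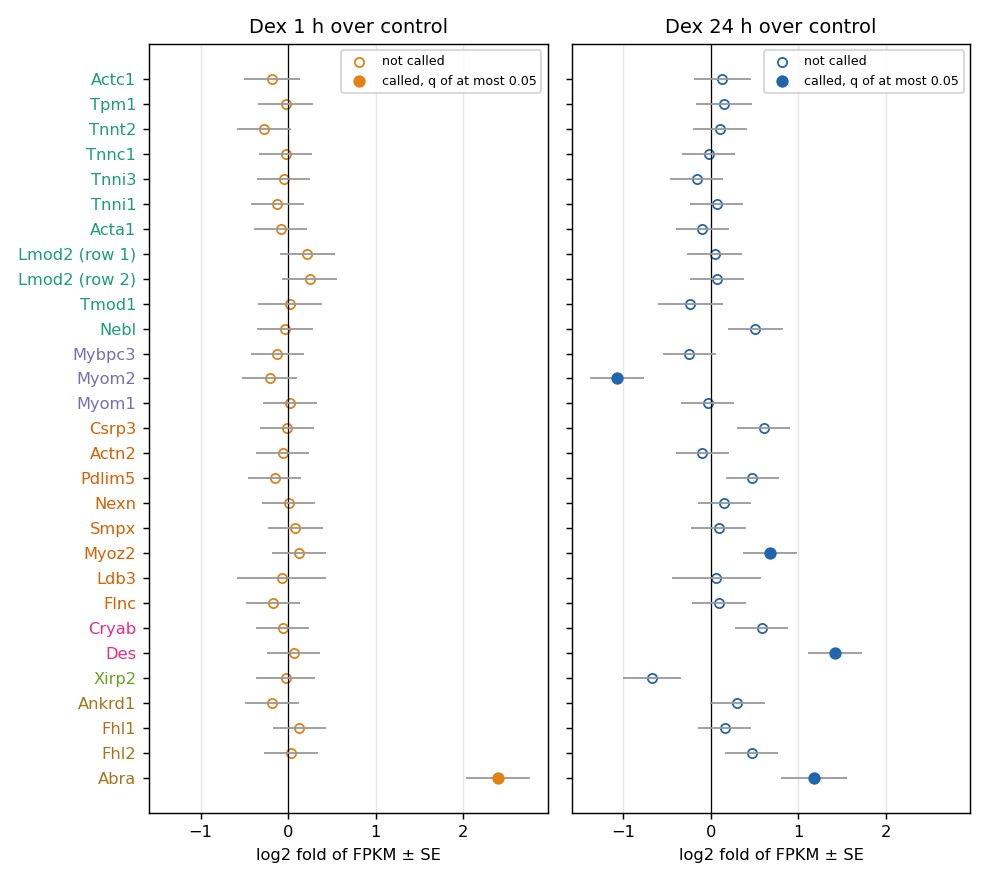
Log2 fold of FPKM over ethanol control at 1 h (left) and 24 h (right) for the 28 tested genes, with bars of ± 1 SE implied by the authors' test statistic and filled points for genes called at a q-value of at most 0.05. At 1 h Abra alone is filled, at 2.40, and at 24 h Des (1.42), Abra (1.18), Myoz2 (0.68) and Myom2 (−1.07) are filled.

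No thin filament gene rose or fell. None of the 10 was called at 1 h or 24 h, and by the deposited unadjusted p there were 0 below 0.05 at 1 h and 1 at 24 h (Nebl). Over all genes tested, 0.863% were called at 1 h and 6.22% at 24 h, and 2.76% and 14.3% were below 0.05 before adjustment. With 10 genes, no difference from these shares can be read. Actc1 had 5592 FPKM in control, 4935 at 1 h and 6125 at 24 h, and log2 folds of −0.18 ± 0.32 and 0.13 ± 0.32. Tpm1 had 2771, 2720.1 and 3080.3 FPKM. Actc1 and Tpm1 were lowest at 1 h and highest at 24 h, by less than their SE over control. Tnnt2 followed the same order with 2286, 1890.4 and 2463 FPKM, and Tnnc1 had 2260.4, 2216 and 2222. Acta1, the skeletal actin that the stressed heart is known to re-express, had 268 FPKM in control, 253 at 1 h and 251 at 24 h. Actc1 was 20.8 times Acta1 in control, 19.5 times at 1 h and 24.4 times at 24 h, although these near-identical paralogs may share reads and their split is uncertain.

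Troponin I, the inhibitory subunit, exists as a fetal form from Tnni1 and an adult cardiac form from Tnni3. Tnni1 had 497, 455 and 519 FPKM in control, 1 h and 24 h, and Tnni3 had 563, 544 and 505. The ratio of Tnni1 to Tnni3 was 0.881 in control, 0.836 at 1 h and 1.03 at 24 h. Both forms were thus present at similar levels, and neither was called. Nebl (nebulette, which runs along thin filaments at the Z-disc) was at 21.7 FPKM in control, 21.2 at 1 h and 30.9 at 24 h. Its log2 fold at 24 h was 0.51 ± 0.32 with p = 0.0221 and q = 0.302 in the authors' deposited table. Transcripts of the filament-end proteins were less abundant, in FPKM, than those of actin and the troponins. Tmod1, which caps the pointed end, had 45.7, 46.3 and 38.9 FPKM, on a row whose locus it shares with Tstd2. Lmod2, which lengthens the filament there, had 47.9, 55.8 and 49.4 FPKM on 1 of its 2 rows and 46.6, 55.4 and 49.0 on the other. The shared locus of Tmod1 and the 2 rows of Lmod2 make these levels uncertain, and neither gene was called.

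At the thick filament and M-band, Myom2 fell, and Myom1 and Mybpc3 were not called. Myom2 (myomesin 2, or M-protein; XLOC_006931, rn5 chr16:79165317-79248430), an M-band protein of adult heart and fast skeletal muscle, had 92.2 FPKM in control, 79.7 at 1 h and 43.8 at 24 h. It was lowest at 24 h, with a log2 fold of −1.07 ± 0.31 and q = 0.00238 in the authors' deposited table. Myom1 (myomesin 1), the general M-band cross-linker, had 53.6, 54.5 and 52.2 FPKM and a log2 fold of −0.04 ± 0.31 at 24 h. The Myom2 to Myom1 ratio was 1.72 in control, 1.46 at 1 h and 0.839 at 24 h, so that Myom2 was the higher of the pair in control and the lower at 24 h. Whether the folds of the 2 genes differ was not tested. Ckm, which heart muscle also expresses, fell too, as given above, and a relation between the 2 falls was not tested. Mybpc3, cardiac myosin-binding protein C, had 355, 326 and 299 FPKM (log2 −0.25 ± 0.30 at 24 h) and was not called.

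Of the 9 Z-disc genes with a row, Myoz2 rose and 7 of the 8 tested were not called. The share called at 24 h was 12.5%, against 6.22% of all genes tested, and with 8 genes no difference can be read. Myoz2 (calsarcin-1, which binds alpha-actinin and the phosphatase calcineurin and restrains it; XLOC_009252, rn5 chr2:246542266-246568964) had 153 FPKM in control, 167 at 1 h and 245 at 24 h. Control and 1 h lay close together and 24 h above them, with a log2 fold of 0.68 ± 0.31. Its q of 0.0480 in the authors' deposited table was just inside the threshold, and the call is lost at a q-value of at most 0.01.

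Csrp3 (muscle LIM protein, a Z-disc stretch sensor) lay just outside, with q = 0.0967 and p = 0.0047 in the authors' deposited table. It had 643 FPKM in control, 638 at 1 h and 978 at 24 h (log2 0.60 ± 0.30). Pdlim5 (a PDZ-LIM adaptor of the Z-disc, also called ENH) had 238, 214 and 329.9 FPKM, a log2 fold of 0.47 ± 0.30 at 24 h and q = 0.357 in the authors' deposited table. In both Csrp3 and Pdlim5 the level was highest at 24 h. Their log2 folds at 1 h, −0.01 ± 0.31 and −0.15 ± 0.30, were smaller than their SE. Actn2, the alpha-actinin that forms the Z-disc lattice, had 621, 595 and 579 FPKM (log2 −0.10 ± 0.30 at 24 h).

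The other Z-disc genes had log2 folds at 24 h from 0.06 to 0.16. Nexn (nexilin) had 190.2 FPKM in control, 190.8 at 1 h and 212 at 24 h, and Smpx, a small stretch-responsive protein, had 155, 165 and 165. Flnc (filamin C, an actin cross-linker) had 111, 98.2 and 118 FPKM. Ldb3 (cypher or ZASP), which links alpha-actinin to signalling kinases, had 136, 129.6 and 142, but its row covers a merged locus (rn5 chr16:8493024-10843082) shared with other genes and is uncertain.

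Des had the highest log2 fold of the 28 tested genes at 24 h, above Abra by less than the SE of either, a difference that was not tested. Des (desmin, the muscle intermediate filament; XLOC_016482, rn5 chr9:82325842-82333548) had 446 FPKM in control, 466 at 1 h and 1191 at 24 h. Control and 1 h were alike in level and 24 h was well above both, with a log2 fold of 1.42 ± 0.31, a 2.67-fold rise, and q = 0.00238 in the authors' deposited table. Cryab (alpha-B crystallin), the chaperone that binds desmin and mutated forms of which cause desmin-related cardiomyopathy, had 2108, 2023 and 3151 FPKM. Its log2 fold at 24 h was 0.58 ± 0.30, with p = 0.0071 and q = 0.132 in the authors' deposited table, and it was not called. Desmin is also made by smooth muscle cells and pericytes. Of the 11 smooth muscle and pericyte markers, Abcc9 and Lmod1 rose and Rgs5 and Smtn fell at 24 h. The share called was 36.4%, against 6.22% of all genes tested, a difference that was not tested. The summed level of the 11 markers was 8897 FPKM in control, 7734 at 1 h and 9668 at 24 h, most of it from Acta2 and Tagln. The part of these 11 markers in the rise of Des was not tested.

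Xirp2, a Xin-repeat protein that binds actin at the intercalated disc, had 34.4 FPKM in control, 33.7 at 1 h and 21.6 at 24 h. Control and 1 h were close, and 24 h was the lowest, with a log2 fold of −0.67 ± 0.33. With p = 0.00455 and q = 0.0945 in the authors' deposited table it was not called.

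**Figure D3:**
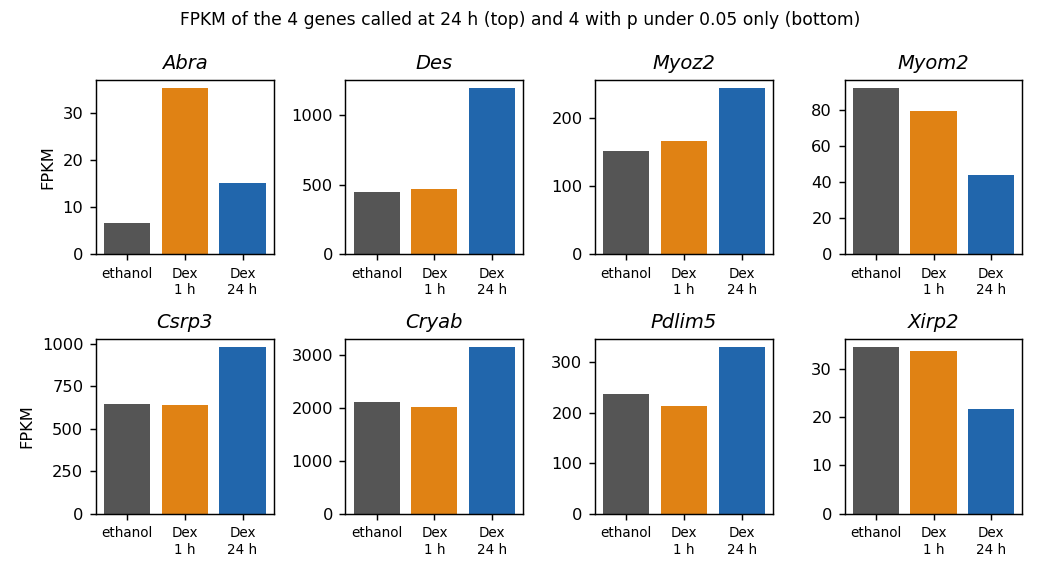
Deposited FPKM in ethanol control, Dex 1 h and Dex 24 h for Abra, Des, Myoz2 and Myom2, called at 24 h (top row), and for Csrp3, Cryab, Pdlim5 and Xirp2, with an unadjusted p under 0.05 (bottom row), on linear axes that start at 0. Abra peaks at 1 h (35.3), whereas Des (466), Myoz2 (167) and Myom2 (79.7) are closer to control at 1 h and apart from it at 24 h.

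Among the LIM, ankyrin and actin-signalling proteins Abra was the called gene at 24 h, with a log2 fold of 1.18 ± 0.38 and q = 0.00238 in the authors' deposited table. Ankrd1 (also called CARP), a titin-binding protein induced by stretch and used as a marker of cardiac stress, had 2349 FPKM in control, 2062 at 1 h and 2893 at 24 h. Its log2 folds over control were −0.19 ± 0.31 and 0.30 ± 0.31, and it was not called. Fhl1, a LIM protein of the titin complex linked to hypertrophic signalling, had 531, 580.4 and 594 FPKM. Fhl2, a related LIM protein known to restrain calcineurin and ERK signalling in the heart, had 198, 202 and 273 FPKM, with p = 0.0292 and q = 0.362 in the authors' deposited table for the last against control. The Fhl1 to Fhl2 ratio was 2.69 in control, 2.87 at 1 h and 2.17 at 24 h.

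The comparison of 24 h with 1 h shares its samples with those over control. Des was higher at 24 h than at 1 h, and Abra and Myom2 were lower. The log2 fold of 24 h over 1 h was 1.35 ± 0.31 for Des, −1.21 ± 0.34 for Abra and −0.86 ± 0.31 for Myom2. Des and Abra had q = 0.00238 and Myom2 had q = 0.00785 in the authors' deposited table. Of the 28 tested genes 3 were called (10.7%), against 4.92% of all 11641 gene rows tested (3.31% higher, 1.61% lower) and 3.43% of those averaging 10 FPKM or more. Myoz2 was at 0.56 ± 0.31 with q = 0.188 in the authors' deposited table, so that its call rests on the comparison with control. Before adjustment, 8 genes were higher and 3 lower at p < 0.05 in the authors' deposited table, 39.3% against 12.4% of all genes tested. Among them, Cryab (log2 0.64 ± 0.30), Pdlim5 (0.63 ± 0.30), Csrp3 (0.62 ± 0.31), Nebl (0.54 ± 0.32), Ankrd1 (0.49 ± 0.31) and Fhl2 (0.43 ± 0.31) were higher and Xirp2 (−0.64 ± 0.32) was lower.

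GR regions were assigned to 22 of the 33 symbols, Ttn and Synpo2l included, with 47 regions in all. The authors' sheet gives each region a height, its highest average ChIP tag value, and a log2 ratio of Dex over DMSO, the solvent named in its header in place of ethanol. These are the authors' values for each region, from an experiment other than that of the RNA samples. The columns of single ChIP samples were left out here, so no spread between them is given. Of the 28 tested genes 20 had a region (71.4%), against 54.4% of all genes averaging 10 FPKM or more and 62.2% of those averaging 100 or more. Within 1 kb of the start the shares were 39.3%, 35.5% and 44.2%. Having a GR region was thus common among abundant transcripts in general. The median height was 23.3 over these 47 regions and 20.9 over all 8514, and the median log2 ratio was 3.16 and 2.42.

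**Figure D4:**
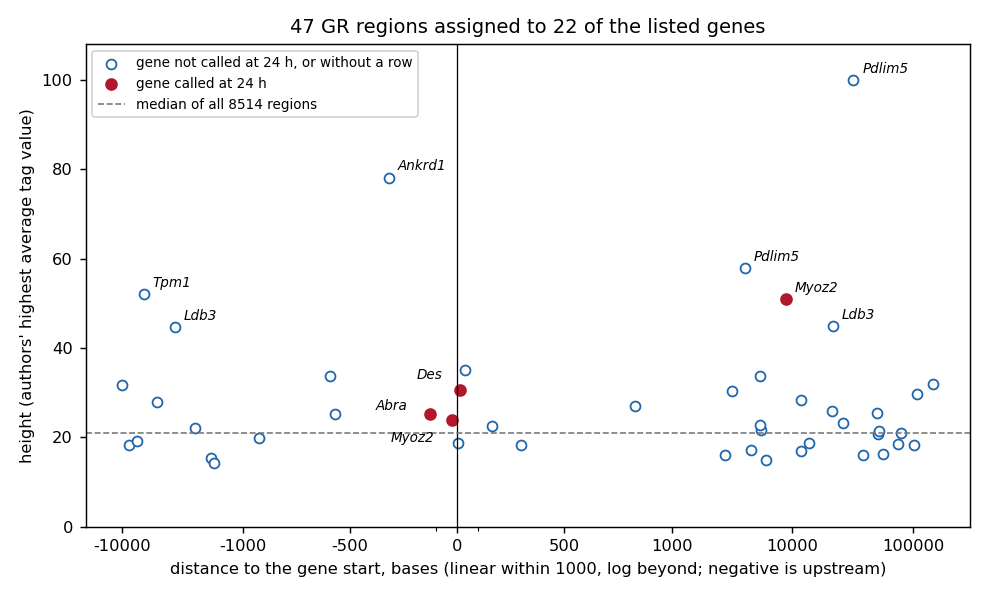
Height of the 47 GR regions against their distance to the start of the assigned gene in bases, linear within 1000 bases and logarithmic beyond, with filled points for genes called at 24 h and a dashed line at the median of all 8514 regions, 20.9. The highest regions belong to Pdlim5 (99.9) and Ankrd1 (78.1), which were not called, while the regions at the starts of Abra, Des and Myoz2 lie between 23.9 and 30.6.

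Of the 4 genes called at 24 h, 3 had a region within 1 kb of the start, as had 8 of the 24 tested and not called (33.3%), 27.7% of all genes tested at 24 h and 20.8% of all genes called at 24 h. With 4 genes, no link between regions and calls is read from this. The Des region (chr9:82325573-82326129) had its assigned distance 16 bases inside the gene, a height of 30.6 and a log2 ratio of 2.63. The Abra region (chr7:80820442-80821097) lay 126 bases upstream, with a height of 25.3 and a log2 ratio of 4.13, and was assigned to Oxr1 as well. Myoz2 had a region 25 bases upstream (chr2:246568861-246569117), with a height of 23.9 and a log2 ratio of 3.19. It also had a region inside the gene 8854 bases from the start (chr2:246559860-246560360), with a height of 50.9 and a log2 ratio of 5.28, the 53rd highest ratio of all regions. Myom2, which fell, had no region. Region positions are given as in the authors' sheet. Their distances matched the rn5 gene rows within 10 bases for 37 of 45 regions.

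Higher regions were assigned to genes that were not called. Pdlim5 had 4 regions. That at chr2:266486115-266486597, inside the gene 32087 bases from the start, had a height of 99.9, the 20th highest of all 8514 regions. Its log2 ratio of 6.52 was the 2nd highest of all. The other Pdlim5 regions had heights of 57.8, 35.1 and 32.0, the second of them 38 bases from the start. Ankrd1 had a region 318 bases upstream (chr1:262037472-262038166) with a height of 78.1 and a log2 ratio of 4.06, and another 9973 bases upstream with a height of 31.7. Its transcript had log2 folds of −0.19 at 1 h and 0.30 at 24 h.

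Region number varied from gene to gene within the roles. Of the 47 regions, 16 were also assigned to another gene. In the thin filament, Tmod1 had 4 regions and Tpm1 3, the highest of them 6590 bases upstream of Tpm1 (52.1). Actc1, Tnnt2 and Tnnc1 had 1 each, with heights of 17.2, 27.8 and 15.4, and each of these was also assigned to another gene. Acta1, Tnni1, Tnni3, Nebl and Lmod2 had none. At the Z-disc, Ldb3 had 7 regions with heights from 16.1 to 44.9, Actn2 had 5 from 16.1 to 25.4 and Flnc had 2. Some of the Ldb3 regions were also assigned to Opn4, and those of Flnc to Ccdc136. The locus of Cryab held 3 regions of 14.3 to 33.8, all of which were also assigned to Hspb2, the neighbouring small heat shock gene, and to 2 loci without a gene name. Fhl2 and Myom1 had 2 regions each, Fhl1, Csrp3, Smpx and Xirp2 had 1 each, and Mybpc3 and Nexn had none.

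Other genes of the same structures were read from a list of 65 symbols, 57 of them with a row. None of the 51 tested was called at 1 h, and 0 were below 0.05 by the deposited unadjusted p, against 0.863% and 2.76% of all genes tested. At 24 h, 3 rose, 3 fell and 46 of 52 were not called (11.5%, against 6.22% of all genes), with a median log2 fold of 0.09. Hspb7, a cardiac small heat shock protein that binds filamin C, rose from 405 to 770.3 FPKM (log2 0.93 ± 0.30). Lmod1, the smooth muscle leiomodin, rose by a log2 of 0.81 ± 0.31 and Csrp2, a LIM protein of smooth muscle, by 0.71 ± 0.32. Mybpc2, the fast skeletal myosin-binding protein C, fell (−0.92 ± 0.34), and so did Fhod3 (−0.75 ± 0.31), a formin that assembles cardiac sarcomeres. Nrap, an actin-anchoring protein of growing myofibrils, fell by 0.75 on the log2 scale, from 68.7 to 40.9 FPKM.

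Because Abra acts on SRF through actin, a list of 20 SRF pathway genes was read beside it. Of the 15 with a row none was called at 1 h, and 0 were below 0.05 by the deposited unadjusted p. Over all genes tested, these shares were 0.863% and 2.76%. At that time Srf had 43.0 FPKM against 53.9 in control (log2 −0.33 ± 0.31) and the smooth muscle actin Acta2 had 4142 against 4806. At 24 h Rock2, a kinase that acts on the actin cytoskeleton, rose from 43.5 to 117 FPKM (1.43 ± 0.31). Myocd (myocardin), the cardiac and smooth muscle coactivator of SRF, rose by 0.76 ± 0.32. Of the 15 genes 12 were not called, Srf among them with 58.7 FPKM. The share called was 20%, against 6.22% of all genes tested, a difference that was not tested. The list median was −0.13 at 1 h and 0.06 at 24 h.

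Some markers of other cells moved at 24 h beside these genes, when 6.22% of all genes tested were called. Of 8 endothelial markers 4 rose and the list went from 155 to 228 FPKM. Of 8 macrophage markers C1qa, C1qb and Cd163 rose and 5 were not called, with the list going from 122 to 196 FPKM. The uncalled macrophage markers went from −0.68 for Ptprc to 0.69 for Lyz2 on the log2 scale, with Csf1r at 0.03. Of 8 fibroblast markers Tcf21 rose and 7 were not called, with a median log2 fold of −0.03. The list went from 6394 to 5289 FPKM, a sum that adds 2 rows of Col1a2 with nearly equal levels and may count this gene more than once. Of 4 erythroid genes, Hba1, Hba2 and Hbb-b1 rose at both times, and the list went from 90.4 FPKM in control to 182 at 1 h and 194 at 24 h. Among the 9 cardiomyocyte markers myoglobin, Mb, fell from 274 to 38.7 FPKM and 8 were not called. The part of these lists in the changes of the sarcomere genes was not tested.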

How the data were processed

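RNA was sequenced from 3 groups, 1 sample each. The submitters' processing notes name TopHat, Cufflinks, Cuffdiff and rn5, but no version. With columns laid out as Cuffdiff writes them, per the file headers, the authors deposited 1 FPKM value per gene and group, and a test statistic (a score), p-value and q-value for each of 3 comparisons. How libraries were scaled is not stated there, and depth is unknown. Values below 0.05 FPKM in all groups (514 rows) showed no common step from which reads could be counted. Recomputing Benjamini-Hochberg values from the 34896 deposited p-values gave the authors' q-values (largest difference 5.22e-07). The smallest q-value was 0.00238.

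Log2 folds are plain ratios of the deposited FPKM values. The size of that fold over the size of the deposited statistic gives the SE (median 0.307 over the listed genes). Without replicate values no test was run here. A symbol on several rows counted once, by its mean log2 fold, whereas sums of FPKM add all of its rows. GR regions come from the authors' integrated sheet, with a deposited signal (height) and log2 ratio per region. Its header names neither peak caller nor build. The sheet's 6 columns of single ChIP samples were left out. Promoter windows are RefSeq sequence of GRCr8.

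The listed genes, their roles and the other gene lists were chosen with earlier results of these data known. Values are given for genes called, with an unadjusted p under 0.05, in an isoform pair, or highest of their role, and the remaining genes are given by value or range. Functions for fold, SE and adjustment were tested on simulated data. Python 3.11.15, pandas 2.3.3 and numpy 2.4.6 were used. Tried as alternatives were a q-value limit of 0.01, adjustment within a comparison, a 1.5-fold minimum, FPKM minimums of 1 and 10, added values of 0.1 and 1, centring, leaving out rows with a shared locus or symbol, and stricter GR regions. The values of 1 gene of the SRF list are not reported here.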

Additional observations from a re-analysis of the deposited data

Results flagged for a closer look

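For 3 genes the level differed between the 2 Dex samples, by the authors' deposited test of 24 h against 1 h. Both have the same ethanol control, so Dex and time in culture cannot be told apart in this difference. Abra, the actin-binding activator of SRF signalling, was lower at 24 h than at 1 h by a log2 of −1.21 ± 0.34, while it was above control at both times (2.40 at 1 h and 1.18 at 24 h). Des, desmin, was higher at 24 h than at 1 h by 1.35 ± 0.31, with 446 FPKM in control and 466 at 1 h. Myom2, the M-band protein, was lower at 24 h than at 1 h by −0.86 ± 0.31, with 92.2 FPKM in control and 79.7 at 1 h. Abra and Des had q = 0.00238 and Myom2 had q = 0.00785 in the authors' deposited table. With 1 value per group no outlying sample could be looked for.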

How the results depend on the processing

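The count of listed genes called was 1 at 1 h under all 5 alternatives (Abra). At 24 h over control it was 4 under 4 alternatives and 3 at a q-value of at most 0.01, where Myoz2 was no longer called. For 24 h over 1 h it was 3 under all 5. The median log2 fold of the list ran from −0.03 to −0.02 at 1 h, from 0.09 to 0.13 at 24 h and from 0.13 to 0.18 for 24 h over 1 h. The 22 single folds tried kept their direction with 0.1 or 1 added to FPKM, and the largest shift was 0.161, for Abra at 1 h (2.24 with 1 added). Genes with a GR region numbered 22, 18 with regions within 10 kb of the start, 22 at a log2 ratio of at least 1, and 16 at a height of at least the median. No paired analysis was possible because each group has 1 sample, and for the same reason no replicate could be left out. The test statistic is the source of every SE, so that errors here are the authors' and cover only these samples. Depth is unknown, which limits what can be said of Myot and other transcripts near 0 FPKM.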
